A study of Mus musculus with 23 samples.

Results

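Microglia from young mice of 2 Alzheimer disease models were compared with each other before pathology: the 3 samples of 3-month-old APP mice against the 4 samples of 3-month-old TAU mice, 7 of the 23 arrays in the series. The samples were chosen by their titles, and no wild-type sample entered the comparisons below. The exception was an alternative fit on all 23 samples, where wild-type samples entered the estimate of spread. APP mice (strain APPswlnd) express human amyloid precursor protein with mutations of familial disease, and TAU mice (strain P301S, PS19) carry a human tau transgene with the P301S mutation. Both young groups are described in the labels as pre-pathology, and their cells were sorted from cortex and hippocampus as CD45+ CD11b+ cells with no further gate. The later groups set beside them were 4 samples of APP mice at 12 months and 4 samples of TAU mice at 9 months (the sample titles of this TAU group say 12 months, and the age and source fields say 9). Both were described as pathologic, and only active microglia, sorted as Clec7a+ cells, were arrayed. Age therefore differs between the gated groups by strain, and gate, age and pathology cannot be told apart between the young and the gated comparison. The promoters that drive the transgenes, the sex of the mice and whether each replicate was a separate animal are not given in the sources used here, so p-values measure the spread between these samples.

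Microglia are the resident macrophages of the brain. In undisturbed tissue they keep a homeostatic programme of surface receptors such as P2ry12 and Tmem119. Around amyloid plaques and degenerating neurons they enter a disease-associated state, with Apoe, Trem2-dependent lipid-handling genes, Igf1, Gpnmb and Itgax higher. Antigen presentation on MHC class II, the hypoxia (HIF1) and glycolysis programme and sterol synthesis are further axes along which activated microglia can differ. The question was whether young APP and young TAU microglia differed at all, and whether any difference had the direction of the one between gated APP and gated TAU microglia.

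No gene separated young APP from young TAU microglia by the test. Of 18726 autosomal probe sets, 0 passed an adjusted p of 0.05 (limma, Benjamini-Hochberg over the whole table; 0% called), and the smallest adjusted p was 0.591. At an unadjusted p under 0.05 there were 274 probe sets, 1.46% of those tested, 148 higher in APP (0.79%) and 126 lower (0.673%). In 670 probe sets (3.58%) the 3 APP samples and the 4 TAU samples did not overlap, 306 with APP higher (1.63%) and 364 with TAU higher (1.94%). By chance, groups of 3 and 4 samples would not overlap in a proportion of 0.0571, and an unadjusted p under 0.05 would occur in a proportion of 0.05. Neither share exceeded these proportions. The median size of the young difference was 0.13 on the log2 scale, and the 99th percentile was 0.59. The typical precision was limited by the number of samples: the median standard error was 0.239, and the median 95% interval reached 0.50 to either side. A call of 0 therefore does not show that small differences were missing.

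The same fit called 151 autosomal probe sets between gated APP and gated TAU (0.806%; limma), 108 higher in APP (0.577%) and 43 lower (0.23%). Its counts were also larger by the looser measures: 1711 probe sets (9.14%) at an unadjusted p under 0.05, 917 (4.9%) whose samples did not overlap and 219 (1.17%) that differed by at least 1 log2 unit. With a median standard error of 0.221, that comparison was only slightly more precise than the young one. The 99th percentile of its differences was 1.07. The gated difference itself differed from the young one in 38 probe sets (0.203%; interaction term), 25 upward (0.134%) and 13 downward (0.0694%), and 913 (4.88%) had an unadjusted p under 0.05. All 38 were also called in the gated comparison, in the same direction as there.

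The arrays gave log2 signals for 22203 probe sets, of which 19572 had a gene symbol. Array medians of the young samples lay between 6.93 and 7.10. Signals of chemosensory receptor genes, taken as background, had a 95th percentile of 7.74 in gated APP, 7.83 in gated TAU and 7.89 in young TAU, and a slightly higher one in young APP. All 10 measured microglia defining markers were above it, among them P2ry12, with a young mean of 18.18 in APP and 18.30 in TAU. Pairwise correlations between the young arrays across autosomal probe sets ran from 0.968 to 0.991, with a median of 0.985 over the 9 pairs within a strain and 0.984 over the 12 pairs between strains. Strain accounted for 11.5% of the variance among the young samples. The first principal component, with 37.7% of the variance, ran from TAU replicate 4 (-35.5) and APP replicate 1 (-29.2) to TAU replicate 2 (27.3) and APP replicate 2 (43.9), so both of its ends held a sample of each strain, and strain took up 1.9% of it. Strain took up most, 57.2%, of the third component, which held 12.6% of the variance. The Y-linked genes Kdm5d and Uty were high in TAU replicate 1 of the young samples, at 7.71 and 8.58, while Kdm5d lay between 3.89 and 4.59 in the other 6. Adding the mean of 3 Y-linked genes to the limma model left the young comparison at 0 calls, with 336 probe sets at an unadjusted p under 0.05.

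The gene with the smallest p was I830077J02Rik on chromosome 3. Its signal was 11.40, 11.91 and 12.04 in the APP samples and 10.35, 10.08, 10.56 and 9.89 in the TAU samples. Every APP sample lay above every TAU sample, by a mean of 1.56 ± 0.27 (log2 difference ± SE), with an adjusted p of 0.591 by limma. In the gated samples the same probe set differed by -0.25 ± 0.25, with overlapping samples. It was called only when limma weighted the arrays by their estimated quality, with a difference of 1.64 and an adjusted p of 0.011; over all other settings its adjusted p lay between 0.368 and 1.

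The other 9 genes named on the APP side were chosen like the first: the smallest p among probe sets whose samples did not overlap and whose higher group was above background. Their young samples do not overlap by that choice, and each had an adjusted p of 1 (limma). Ifi30, a lysosomal thiol reductase that unfolds proteins for MHC class II presentation, read 13.14, 13.03 and 13.09 in APP against 12.61, 12.63, 11.94 and 11.68 in TAU. The APP samples were nearly equal to each other, and the TAU samples spread over a wider range below them. The young difference was 0.87 ± 0.26, and the gated difference pointed the other way, at -0.92 ± 0.25 with an adjusted p of 0.127. Abcd2, a peroxisomal transporter of very long-chain fatty acids, was 12.30, 12.00 and 12.40 in APP and 11.80, 11.65, 11.76 and 11.25 in TAU. Its differences were alike in both comparisons, 0.62 ± 0.18 in young and 0.66 ± 0.17 in gated cells, and neither passed the test. Eef2, the translation elongation factor that moves the ribosome along the mRNA, differed by 0.80 ± 0.24. Epb41l3, a protein that links membrane to cytoskeleton, differed by 0.90 ± 0.28. Its TAU mean was at background, so this reading does not give the size of the difference. The rest, Tmem268, Ninl (a centrosomal protein), Cops7a (COP9 signalosome), Taf8 (TFIID) and Camk2g (a calcium/calmodulin kinase subunit), differed by 0.48 to 0.69.

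On the TAU side, Ppp1r21, a regulatory subunit of protein phosphatase 1, had the cleanest gap. It read 12.22, 12.31 and 12.07 in APP and 13.06, 13.39, 13.09 and 13.02 in TAU, a difference of -0.94 ± 0.23. Both groups were tight, and in gated cells the difference was -0.04 ± 0.21. Gar1, a core protein of the H/ACA particles that guide pseudouridylation of RNA, was 11.27, 10.78 and 11.17 in APP and 12.08, 11.33, 12.25 and 12.35 in TAU, a difference of -0.93 ± 0.23. TAU replicate 2 lay closest to the APP samples. Lsp1, a leukocyte protein that binds actin, differed by -0.62 ± 0.20, and Metap2, a methionine aminopeptidase, by -0.65 ± 0.22. Tifa (an adaptor of TRAF signalling), Klrd1 (the CD94 receptor subunit of natural killer cells), Slc1a7 (a glutamate transporter), Rexo5 (an RNA exonuclease) and Gm12657 differed by -0.77 to -0.47. Klrd1, Slc1a7 and Rexo5 were at background in young APP, so their readings do not give the size of a difference.

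Ccr6, the receptor for the chemokine CCL20, was at background in some young samples and far above it in others. Its signal was 5.59, 5.27 and 5.34 in APP, at background, and 11.95, 11.90, 5.83 and 11.40 in TAU. TAU replicate 3 thus lay at the APP level while the other 3 TAU samples were far above it. The measured difference was -4.87 ± 1.31 with an adjusted p of 1 (limma). Since APP was at background, it is only known that the TAU mean lay at least 2.27 log2 units above that level. The measured difference ranged from -6.35 to -4.31 when 1 young sample was left out. The gated TAU samples were split as well, at 5.43, 9.60, 9.79 and 4.87, while the gated APP samples were all at background, between 4.70 and 5.58.

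Only 6 autosomal probe sets (0.032%) differed by at least 1 log2 unit between the young groups. Besides I830077J02Rik and Ccr6 these were Ttr, Fam71a, Fam107a and Dusp18, singled out after their values were seen. Ttr, a thyroid hormone carrier made by the choroid plexus, had a difference of 3.37 ± 1.47 with a standard deviation of 3.54 among the APP samples. Fam71a (1.14 ± 0.56), Fam107a (1.08 ± 0.59) and Dusp18 (1.04 ± 0.54) had overlapping samples, and none of these 4 passed the test.

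**Figure D1:**
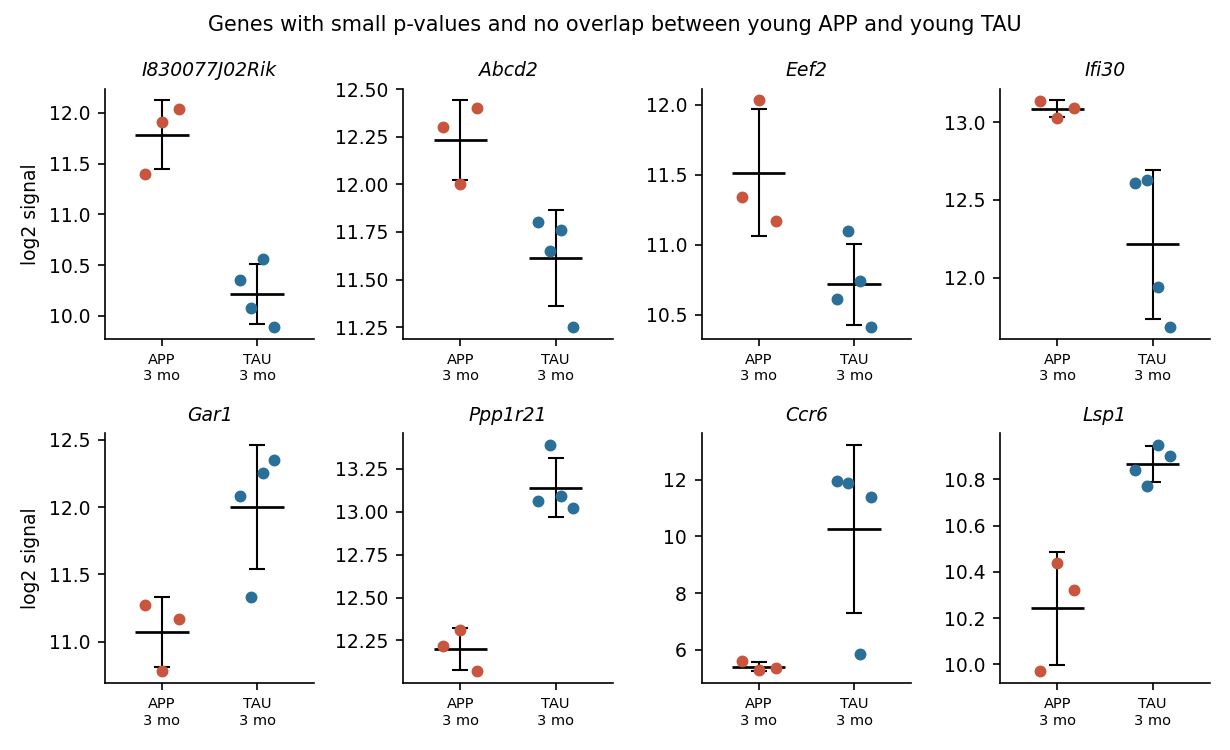
Log2 signal of 8 genes with small p-values in the young comparison, one point per sample, for APP mice at 3 months (3 samples) and TAU mice at 3 months (4 samples); bars give the mean and the standard deviation, and each panel has its own axis. The groups do not overlap in any panel, as the choice of genes requires, and Ccr6 shows 3 TAU samples between 11.40 and 11.95 with the fourth at 5.83.

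Gene lists for microglial states and pathways gave 0 calls in every case in the young comparison (limma). The homeostatic list had a median young difference of 0.08 over its 26 measured autosomal members and the disease-associated list 0.02 over 35, beside 0.00 over all autosomal probe sets. Of the 35 disease-associated genes, 19 had a young difference above 0, and 4 had an unadjusted p under 0.05 (beside 1.46% of all autosomal probe sets), with Csf1 and Apoe higher in APP and Ccl6 and Cd9 lower. Csf1, the growth factor on which microglia depend, was 14.06, 14.71 and 14.60 in APP and 13.23, 14.26, 13.45 and 13.15 in TAU, a difference of 0.93 ± 0.28. TAU replicate 2 reached into the APP range, while within a replicate number APP was higher by 0.83, 0.45 and 1.15. Ccl6, a chemokine, was lower by 0.90 ± 0.29 in APP samples, with values of 11.76, 10.55 and 10.71 against 12.68, 11.67, 11.60 and 11.69. Here APP replicate 1 lay among the TAU samples, while within a replicate number the difference was -0.92, -1.12 and -0.89. Neither had an adjusted p under 1.

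Apoe, the lipid carrier whose human alleles set much of the inherited Alzheimer risk, was 12.27, 11.59 and 12.15 in young APP and 11.69, 11.57, 10.82 and 10.56 in young TAU. The samples overlapped at APP replicate 2, and the difference of 0.84 ± 0.32 did not pass the test (limma, adjusted p = 1). In gated cells Apoe stood between 17.29 and 18.62 in all 8 samples, with a strain difference of 0.24 ± 0.30. Among the genes fixed for naming, Trem2, the lipid receptor that drives this state, differed by -0.09 ± 0.21, Axl by 0.07 ± 0.28, Cst7 by 0.02 ± 0.30 and Itgax by -0.06 ± 0.24. Axl and Itgax were at background in both young groups. Olfml3, a secreted microglial glycoprotein, was the homeostatic gene with the smallest p, at 12.56, 11.52 and 11.74 in APP and 11.29, 11.28, 11.35 and 10.81 in TAU. APP replicate 1 stood apart above the others, and the difference was 0.76 ± 0.30.

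Other programmes lay near the median of all probe sets. The list medians were -0.03 for 29 type I interferon genes, 0.00 for 12 genes of MHC class I and peptide loading, -0.03 for 25 NF-kB cytokines and chemokines, 0.11 for 26 lysosomal genes and 0.10 for 20 genes of lipid uptake, storage and efflux. Oxidative phosphorylation stood at -0.08 over 41 genes and cytosolic ribosomal proteins at -0.11 over 26. Orthologues of Alzheimer risk genes had a median of 0.17 over 32 genes, complement 0.06 over 15, cell cycle 0.04 over 31, and immediate early and heat shock genes -0.05 over 29. TAU replicate 4 had the lowest young mean of the lysosomal (12.93), MHC class I (10.03) and risk orthologue (10.88) lists. In the cell cycle list it had the highest, at 6.81. Nfkbia, the inhibitor that holds NF-kB in the cytoplasm, was 16.21, 16.60 and 16.23 in APP and 16.69, 17.08, 16.71 and 16.70 in TAU. Its samples did not overlap, and its difference of -0.45 ± 0.20 did not pass the test. Jund, an AP-1 subunit, differed by 0.59 ± 0.24 and Pfkfb3, which makes the activator of glycolysis fructose 2,6-bisphosphate, by 0.83 ± 0.28, both with overlapping samples.

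The mouse genes behind the transgenes' proteins were also measured, together with their processing enzymes. The array probes are labelled as mouse genes, and whether they also read the human transgenes was not tested. App was 10.71, 11.51 and 11.10 in young APP and 11.02, 11.13, 10.79 and 10.11 in young TAU, a difference of 0.34 ± 0.29 with overlapping samples. Mapt, the tau gene, was at background in all 7 samples, at 6.26, 6.73 and 6.80 in APP and 7.60, 7.20, 7.38 and 7.26 in TAU. The groups did not overlap, but a difference of -0.76 ± 0.23 between readings at background gives no fold. Over the 14 measured genes of this list 12 lay above 0, where 49.4% of all autosomal probe sets did, with a median of 0.13. Of the 14, 8 were above background in young samples. The mean of the list was 9.61, 9.67 and 9.70 in APP and 9.65, 9.74, 9.65 and 9.24 in TAU. Only TAU replicate 4 lay below all APP samples. Ncstn of the gamma-secretase complex differed by 0.42 ± 0.32, Psenen by 0.01 ± 0.29, Adam10, the main alpha-secretase, by -0.02 ± 0.20, and Bace1, the beta-secretase, by 0.15 ± 0.24 at background.

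**Figure D2:**
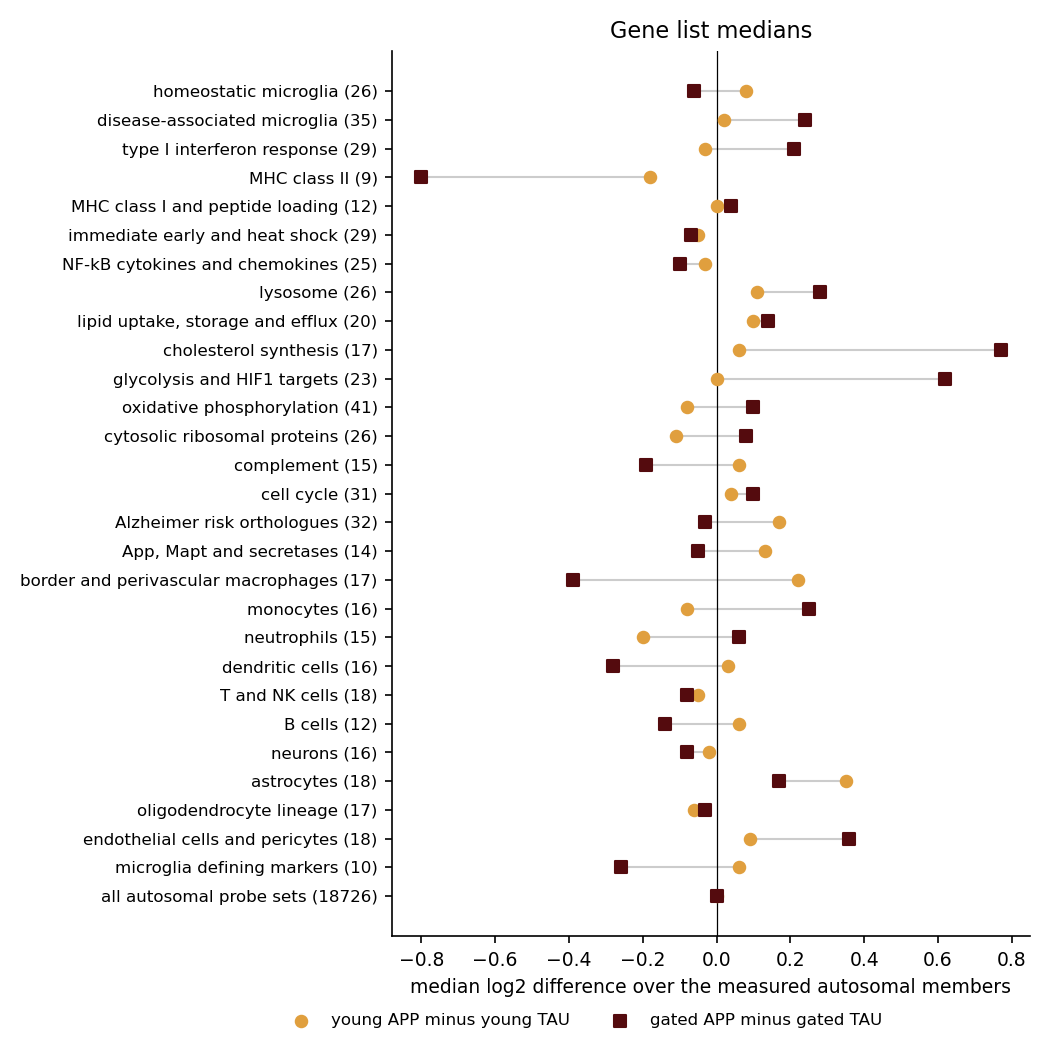
Median log2 difference, APP minus TAU, of each gene list in young cells (circles) and gated cells (squares), with the number of measured autosomal members in brackets and all autosomal probe sets in the bottom line. MHC class II (-0.18 young, -0.80 gated), cholesterol synthesis (0.06 and 0.77) and glycolysis and HIF1 targets (0.00 and 0.62) are far apart, and astrocyte markers have the highest young median at 0.35.

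Markers of other cell types were followed in the same samples. Of the 18 measured astrocyte markers, 17 had a young difference above 0, where 49.4% of all autosomal probe sets did, and their median was 0.35. None passed the test. Of the 18 markers, 8 were above background in young samples. The mean signal of the list was 8.73, 9.44 and 8.70 in APP and 8.43, 8.98, 8.39 and 8.38 in TAU. The highest sample of each strain was replicate 2, and TAU replicate 2 lay above APP replicates 1 and 3. Within samples of the same replicate number APP was higher each time, by 0.30, 0.46 and 0.31. Without APP replicate 2 the median fell to 0.15. In bulk samples, fewer cells of a type and less RNA per cell cannot be told apart. Aldoc, the glycolytic aldolase of astrocytes, differed by 0.99 ± 0.50. Mlc1, a membrane protein of astrocyte endfeet, differed by 0.87 ± 0.37, but it was at background in both young groups. Its readings are therefore not a measured difference. Astrocytes also make Apoe, and the part of these markers in the Apoe difference was not tested.

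Of 15 neutrophil markers, 1 had a young difference above 0, with a median of -0.20; 3 of the 15 were above background. The mean of the list was 6.37, 7.16 and 6.89 in APP and 6.78, 7.53, 6.95 and 6.77 in TAU. Replicate 2 was again the highest of each strain, and APP minus TAU within a replicate number was -0.41, -0.37 and -0.06. The number above 0 became 7 without APP replicate 1 and 6 without TAU replicate 2, with medians of -0.09 and -0.06. Border and perivascular macrophage markers had a median of 0.22 over 17 genes, monocyte markers -0.08 over 16, dendritic cell markers 0.03 over 16, T and NK cell markers -0.05 over 18 and B cell markers 0.06 over 12. The median was -0.02 for 16 neuronal markers, -0.06 for 17 oligodendrocyte lineage markers and 0.09 for 18 endothelial and pericyte markers. None of these lists held a young call.

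The genes that separated the gated cells did not lean the same way in young cells. Of the 151 called in gated cells, 76 had the same sign in young cells, or 50.3%, beside 50.7% of all autosomal probe sets. Split by direction, 57 of the 108 higher in gated APP were higher in young APP, and 19 of the 43 lower in gated APP were lower in young APP. The median young difference was 0.02 for the first set, whose median gated difference was 1.42, and 0.03 for the second, whose median gated difference was -1.55. Across all 18726 autosomal probe sets the young and gated differences correlated at r = 0.04 (Spearman 0.03), and across the 151 at r = -0.02 (Spearman 0.00). These comparisons share no sample, but genes are not independent replicates and the values serve as a description.

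Of the 274 probe sets with an unadjusted p under 0.05 in young cells, 151 had the same sign in gated cells (55.1%, beside 50.7% of all). Of these 274, 1 was called there, where 0.806% of all autosomal probe sets were called. Of the 670 whose young samples did not overlap, 20 did not overlap in gated cells in the same direction and 11 in the opposite one. Over all autosomal probe sets, 917 of 18726 (4.9%) did not overlap in gated cells, in either direction. The 1 gene called in gated cells was Lsp1. It was lower in young APP, at 9.97, 10.44 and 10.32 against 10.84, 10.77, 10.95 and 10.90, and higher in gated APP, at 13.61, 13.48, 13.13 and 13.45 against 12.16, 11.63, 12.43 and 12.04. The groups did not overlap at either stage, and they swapped order. The gated difference was 1.35 ± 0.18, and the gated minus young difference was 1.97 ± 0.27 with an adjusted p of 0.00234 (limma).

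In 6 of the 151 the young samples did not overlap (3.97%, beside 3.58% of all autosomal probe sets), and in 4 of these the direction was that of the gated cells. Those 4, named after their values were seen, were Hcar2, the microglial niacin receptor (0.66 ± 0.33 in young, 1.44 ± 0.30 in gated cells), Srgn, the granule proteoglycan serglycin (0.29 ± 0.22 and 1.07 ± 0.21), Adam3 and Acod1, the enzyme that makes itaconate. Hcar2 was at background in young TAU, so its young reading does not give the size of a difference. Adam3 and Acod1 were at background in both young groups, so their young order is not a measured difference. Adam3 was at background in the gated groups as well, and Acod1 was at least 3.13-fold lower in gated APP. Lsp1 and Mamdc2 had the opposite direction. None of the 6 was called in young cells. The 95% interval of the young difference left out the gated estimate in all 151 and held 0 in 150 of them. These intervals are not adjusted, and the gated estimates were selected for size. Part of the set could not be read at 3 months: 82 of the 151 were at background in both young groups, 63 of them higher in gated APP, and 69 were above background.

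**Figure D3:**
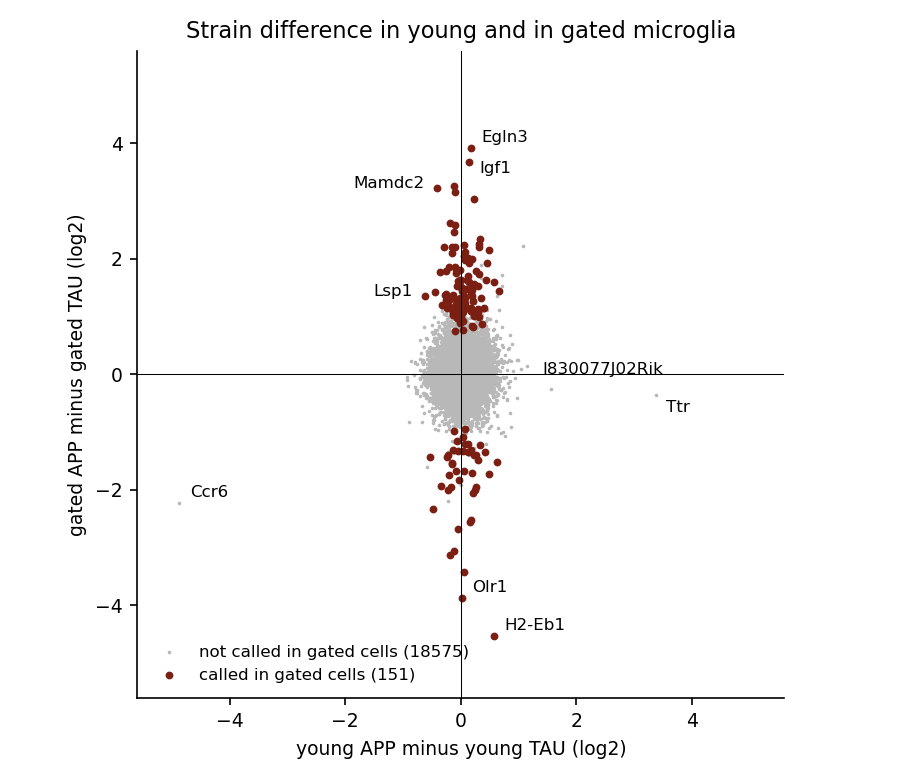
Difference between APP and TAU in young cells (horizontal, log2) against that in gated cells (vertical, log2) for 18726 autosomal probe sets; larger dark points are the 151 called in gated cells. The dark points spread from -4.53 (H2-Eb1) to 3.91 (Egln3) vertically and stay close to the vertical axis, while Ccr6 (-4.87) and Ttr (3.37) lie farthest out horizontally and were called in neither comparison.

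A score summed this up per sample: the mean of the genes higher in gated APP minus the mean of those lower, after centring each gene on the 7 young samples. It was -0.155, 0.115 and 0.033 in the APP samples and -0.167, -0.039, 0.032 and 0.181 in the TAU samples. The lowest and the highest sample were both TAU, and the groups overlapped. The means were -0.002 ± 0.138 (SD, n = 3) and 0.002 ± 0.145 (SD, n = 4), a difference of -0.004 with a two-sided exact permutation p of 0.971 over 35 arrangements, where the smallest possible p was 0.0571. That test ignores replicate numbers; within them the APP minus TAU score was 0.012, 0.154 and 0.001. The same score differed by 3.42 between the gated groups, which is a description only, since its genes were selected there.

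**Figure D4:**
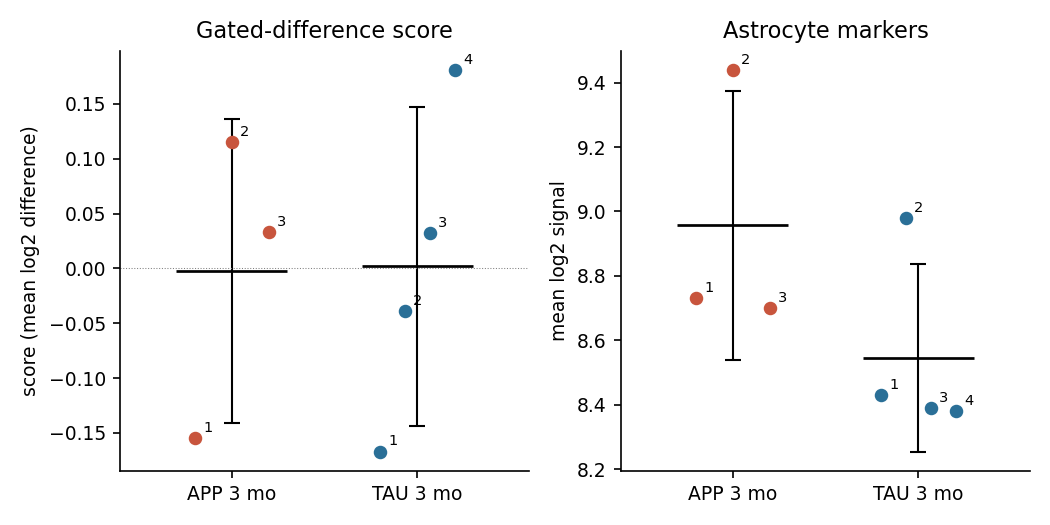
Left, score of the gated difference in each young sample; right, mean log2 signal of 18 astrocyte markers; points carry the replicate number, and bars give the mean and standard deviation. The score means of APP and TAU are -0.002 and 0.002, and replicate 2 has the highest astrocyte mean in each strain (9.44 and 8.98).

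MHC class II presents peptides to CD4+ T cells, and one of its chains had the largest gated difference among the called probe sets. H2-Eb1, a beta chain, was 9.20, 9.31, 9.74 and 10.26 in gated APP and 14.28, 14.18, 14.28 and 13.88 in gated TAU, a difference of -4.53 ± 0.27 (23.1-fold; limma, adjusted p = 1.71e-07). In young cells it stood at 9.02, 8.83 and 8.51 in APP and 7.96, 8.76, 8.54 and 7.57 in TAU. The young groups overlapped, and their difference of 0.58 ± 0.29 had the opposite sign. H2-Ab1 differed by -3.13 ± 0.22 in gated cells and by -0.18 ± 0.24 in young cells, where it was at background. H2-Aa, the alpha chain that pairs with it, differed by -2.52 ± 0.27 and 0.18 ± 0.30. Of the 9 measured genes of the list, 4 were lower in gated APP than in gated TAU (H2-DMa in addition, at -1.21) and H2-Ob was higher, at 1.14, where 0.23% of all autosomal probe sets were called lower and 0.577% higher. In young cells none was called and the median was -0.18, with H2-DMb1 at -0.55 ± 0.27. H2-DMa and H2-Ob, like all further list members named below, were singled out after their values were seen. The mean of 16 dendritic cell markers lay between 8.18 and 8.32 in gated TAU and between 7.83 and 7.97 in gated APP, with Itgax the 1 member called. The mean of 17 border macrophage markers lay between 7.83 and 8.43 in gated TAU and between 7.52 and 7.70 in gated APP. Neither list's means overlapped between the gated groups. Means of T and NK cell markers did not overlap either, at 5.93 to 6.04 in gated APP and 6.11 to 6.22 in gated TAU. Monocyte marker means were apart in the other direction, at 6.94 to 7.10 in gated APP and 6.71 to 6.92 in gated TAU. In young cells the dendritic means did not overlap in the opposite order, at 7.70 to 7.72 in APP and 7.62 to 7.67 in TAU. The T and NK cell and monocyte means lay under background in both gated groups. The border macrophage means did so in gated APP, and the dendritic means in both young groups. In young cells 1 of 18 T and NK cell, 2 of 16 monocyte, 5 of 16 dendritic and 8 of 17 border macrophage markers were above background. The part of these lists in the class II difference was not tested.

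Hypoxia and glycolysis genes were on the APP side in gated cells. Egln3, the HIF prolyl hydroxylase that is itself a HIF1 target, was 12.03, 12.46, 11.92 and 11.65 in gated APP and 8.19, 7.89, 8.75 and 7.58 in gated TAU, a difference of 3.91 ± 0.25 (15.1-fold; limma, adjusted p = 2.39e-07). In young cells it was at background, at 6.26, 6.41 and 6.68 in APP and 6.40, 5.88, 6.12 and 6.68 in TAU, and the difference was 0.18 ± 0.27. Of the 23 measured members of the list, 8 were higher in gated APP than in gated TAU and 0 lower, beside 0.577% and 0.23% of all autosomal probe sets. The lactate exporter Slc16a3 (1.53), the oxidoreductase Ero1a (2.04), the glucose transporter Slc2a1 (1.41), Hif1a (1.37), Pdk1 (at least 2.3-fold, since gated TAU was at background), Tpi1 (1.42) and the lactate dehydrogenase Ldha (1.02) were the others. Their young differences lay between -0.44 (Tpi1) and 0.30 (Slc16a3), and the median over the list was 0.00. Ero1a was at background in both young groups. Slc2a1 and Hif1a were well above background at 3 months, with young means of 15.44 and 12.23 in APP and 15.26 and 12.36 in TAU, so for these genes a level was there to compare.

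Sterol synthesis genes were also on the APP side. Of 17 measured genes, 6 were higher in gated APP than in gated TAU and 0 lower, beside 0.577% and 0.23% of all autosomal probe sets. Sc5d differed by 2.11 and the regulator Srebf2 by 1.36. The other 4 were at background in gated TAU and have only a bound: at least 2.48-fold for Fdps, 1.6-fold for Msmo1, 1.31-fold for Cyp51 and 1.06-fold for Hsd17b7. The young differences of these 6 lay between -0.07 and 0.12. Their list had a young median of 0.06, and 5 of its 17 members were above background in young cells. Sqle, the squalene epoxidase, had the smallest young p of the list, at 6.06, 5.84 and 5.91 in APP and 5.74, 5.74, 5.25 and 5.56 in TAU, all at background.

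Short promoter windows show the letters around which these sets are commonly described. They were taken from RefSeq (GRCm38.p6) within 250 bases before the transcription start, for 3 genes with the core of the hypoxia response element (ACGTG) and 3 with a CCAAT box, the binding site of NF-Y, which acts at MHC class II and sterol gene promoters. Each is written 5′ to 3′ on the strand of the gene, with the motif in capitals on either strand (CACGT and ATTGG are the reverse complements).
Egln3, chr12:54204069-54204124, minus strand: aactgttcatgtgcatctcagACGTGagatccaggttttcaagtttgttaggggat
Ero1a, chr14:45318601-45318665, minus strand: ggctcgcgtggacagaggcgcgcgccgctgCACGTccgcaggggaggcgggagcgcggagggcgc
Slc16a3, chr11:120949010-120949066, plus strand: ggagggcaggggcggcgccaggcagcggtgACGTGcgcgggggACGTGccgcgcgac
H2-Eb1, chr17:34305778-34305842, plus strand: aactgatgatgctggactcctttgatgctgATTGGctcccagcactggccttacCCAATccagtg
H2-Aa, chr17:34287837-34287901, minus strand: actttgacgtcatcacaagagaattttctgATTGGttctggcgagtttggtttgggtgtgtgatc
Cyp51, chr5:4104698-4104756, minus strand: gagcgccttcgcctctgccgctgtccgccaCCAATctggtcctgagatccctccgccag

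ACGTG was found in 11 of 21 promoters of the hypoxia and glycolysis list (52.4%) and in 18.2% of all 14990 genes searched. These were the genes with a promoter entry on autosomes other than chromosome 18. For the 2473 with more than 1 entry the first was used. CCAAT was found in 12 of 14 sterol promoters (85.7%), in 6 of 7 MHC class II promoters (85.7%) and in 35.7% of all. The sterol response element (TCACNCCAC, both strands) was found in 1 of 14 sterol promoters, beside 1.02% of all. Over all genes called in gated cells, ACGTG was found in 24.7% of the promoters of those higher in APP and 21.2% of those lower, and CCAAT in 38.2% and 39.4%. Among the 20 genes named for the young comparison, 16 had a promoter entry; 4 of these held ACGTG (25%) and 3 held CCAAT (18.8%). The shares are counts of letters in these windows and say nothing of binding.

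**Figure D5:**
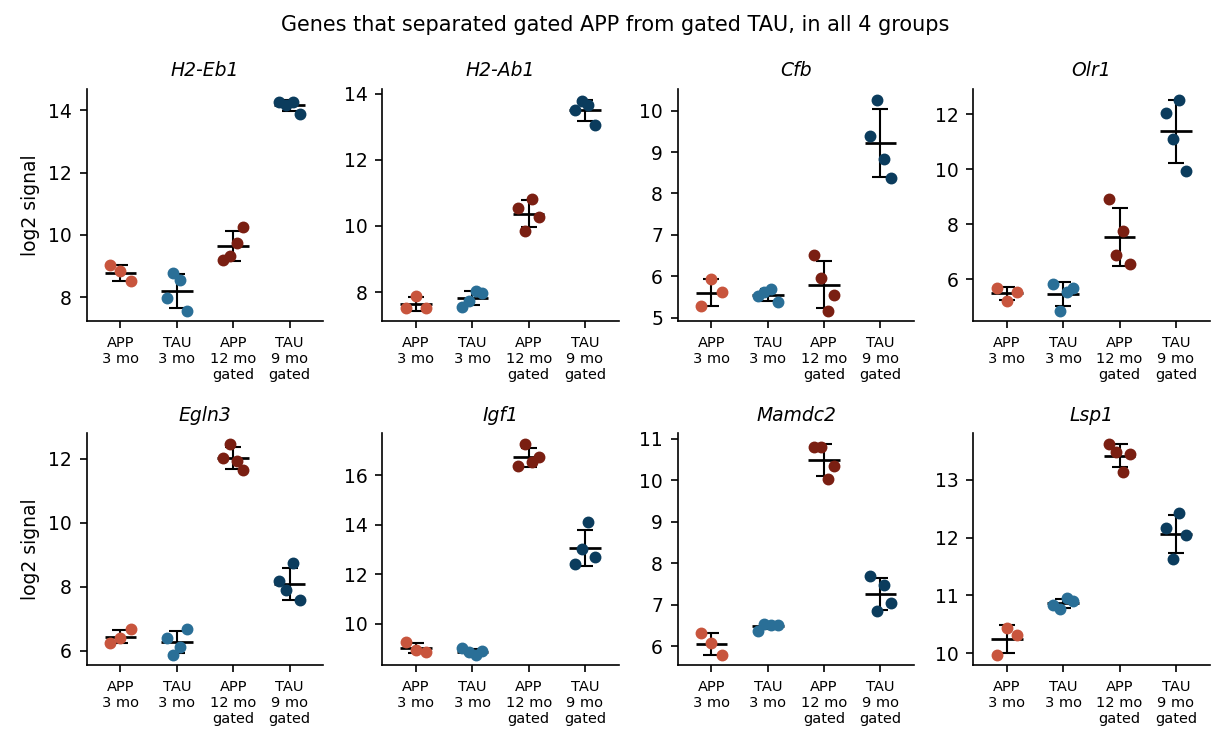
Log2 signal of 8 genes called between gated APP and gated TAU, one point per sample, in young APP (3 samples), young TAU (4), gated APP (4) and gated TAU (4); bars give the mean and the standard deviation, and each panel has its own axis. The gated groups do not overlap in any panel. The young groups sit side by side at low levels except for Lsp1 and Mamdc2, which are lower in young APP without overlap and higher in gated APP. Mamdc2, H2-Ab1, Cfb, Olr1 and Egln3 are at background in both young groups.

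Igf1, the insulin-like growth factor of activated microglia, was 16.39, 17.28, 16.54 and 16.74 in gated APP and 12.43, 13.02, 14.12 and 12.71 in gated TAU, a difference of 3.67 ± 0.29 (12.7-fold). In young cells it read 9.25, 8.92 and 8.86 in APP and 9.00, 8.84, 8.74 and 8.91 in TAU, above background and overlapping, with a difference of 0.14 ± 0.31. The gated minus young difference was 3.53 ± 0.42 (limma, adjusted p = 8.93e-04). Gpnmb, a glycoprotein of lipid-laden phagocytes, differed by 3.03 ± 0.39 in gated and by 0.23 ± 0.42 in young cells, where it was at background in both groups. Its interaction term missed the threshold (limma, adjusted p = 0.06). Fabp3, a fatty acid binding protein, differed by 2.47 ± 0.33 and -0.12 ± 0.35. In the lipid list of 20 measured genes Fabp5 (2.24) was higher too, while Abca1 (-1.49), the cholesterol exporter, and the scavenger receptor Cd36 (-2.00) were lower in gated APP than in gated TAU, where 0.577% and 0.23% of all autosomal probe sets were called. Their young differences were 0.05, 0.30 and 0.25, with Fabp5 and Cd36 at background in both young groups.

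Mamdc2 was ordered by strain in young cells against its gated direction. It read 6.31, 6.07 and 5.79 in young APP and 6.37, 6.53, 6.50 and 6.52 in young TAU, all at background, and was higher in gated APP by 3.23 ± 0.22. Gated TAU was at background too, so the fold is a bound of at least 6.36-fold. On the same footing, Lgi2 and Dkk2, a Wnt antagonist, were at least 1.27-fold and 1.06-fold higher in gated APP. Etl4 (3.26 ± 0.24), Adarb1 (2.62 ± 0.32), an RNA-editing deaminase, and Myo1e (2.34 ± 0.35), a class I myosin, had young differences of -0.12, -0.19 and 0.33. Of these, Etl4 was at background in both young groups.

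On the TAU side of the gated comparison, Olr1, a receptor for oxidised lipoprotein, was at least 12.6-fold higher in TAU, and Cfb, complement factor B, at least 2.8-fold; their young differences were 0.02 ± 0.55 and 0.06 ± 0.37, at background. Postn (-3.05 ± 0.25), an extracellular matrix protein, Siglecf (-2.67 ± 0.27), a sialic acid receptor, Ccl9 (-2.34 ± 0.24), a chemokine, and Mmp2 (-2.06 ± 0.24), a matrix metalloprotease, had young differences of -0.12, -0.05, -0.49 and 0.21. Ms4a7, a marker of border macrophages, differed by -2.56 ± 0.50 in gated cells, with gated TAU at 11.48, 12.23, 14.27 and 11.17. In young cells it was 10.47, 9.87 and 9.51 in APP and 10.42, 10.12, 9.11 and 9.56 in TAU, with no order by strain. Of the 17 border macrophage markers, Mrc1 (-1.68) and Stab1 (-1.95) were also lower in gated APP than in gated TAU, and Dab2 was higher (at least 2.86-fold), beside 0.23% and 0.577% of all autosomal probe sets; their young differences were -0.08, 0.26 and 0.46. Dab2 was at background in young TAU. The part of these markers in the gated difference was not tested.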

How the data were processed

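The values are the log2 signals that the authors deposited, made with RMA in Transcriptome Analysis Console per the submitters' processing notes; no version is given in the sources used here. RMA normalizes arrays to each other by quantiles, so a shift of all genes would not show. Per the labels' protocols, total RNA extracted with TriPure was amplified with a 3' IVT Pico kit. Intensity files were not used here.

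A model with a mean per group was fitted to the 15 transgenic samples with limma 3.58.1 in R 4.3.3 (lmFit, eBayes), with Benjamini-Hochberg adjustment over 22203 probe sets and a threshold of 0.05. Counts cover the 18726 probe sets whose gene lies on an autosome in RefSeq (GRCm38.p6). The script was tested on simulated data. Differences are APP minus TAU. A group mean under the 95th percentile of 1449 chemosensory probe sets is called background, and a fold against it is a bound ("at least"). The score was tested by exact permutation.

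The members and lists were chosen with earlier results of these data known. Genes were named by rule: up to 10 per direction in the young and in the gated comparison (called, or else the smallest p among samples that do not overlap), 5 per direction for the interaction, those with the smallest young p in each list, all microglia defining, App, Mapt and secretase and Y-linked genes, and 8 fixed genes. A gene list keeps 1 probe set per symbol and autosomal members only; 2 members were matched through an older symbol. The App, Mapt and secretase list also holds Pdgfb.

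Titles number the replicates. Deviations of young samples with the same number correlated at 0.17, 0.40 and 0.12, and gated pairs gave 0.09, 0.02, 0.11 and 0.27. Values for unlike numbers are not given here, so these do not show that the numbers pair the samples. Alternatives were other samples in the fit, a trend, array weights, centring, quantile normalization, a filter on dim probe sets, the replicate block, a Y-linked covariate and leaving out each sample.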

Additional observations from a re-analysis of the deposited data

Results flagged for a closer look

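For 19 of the genes named, the difference between APP and TAU itself differed between gated and young cells (limma interaction term, gated minus young). It was larger in the direction of APP for Egln3 (3.73), Mamdc2 (3.65), Igf1 (3.53), Etl4 (3.37), Lgi2 (3.26), Adarb1 (2.81), Fabp3 (2.59), Lsp1 (1.97), Dkk2 (1.95) and Aplp2 (1.26), an amyloid precursor-like protein. It was larger in the direction of TAU for H2-Eb1 (-5.11), Olr1 (-3.88), Cfb (-3.48), H2-Ab1 (-2.95), Postn (-2.93), H2-Aa (-2.70), Siglecf (-2.62), Mmp2 (-2.27) and Ccl9 (-1.85). Olr1, Cfb, Mamdc2, Lgi2 and Dkk2 were at background in both young groups and in the lower gated group. Egln3, Etl4 and H2-Ab1 were at background in both young groups. The values of all these genes describe the readings and are not sizes of a change in expression.

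In 24 of 372 combinations of a named gene and a group of 4, 1 sample lay far from the other 3; chance gives about 1 in 20. In young TAU, Ccr6 was 5.83 in replicate 3, with the nearest sample at 11.40, and Kdm5d was 7.71 in replicate 1, with the nearest at 4.59. Further young TAU samples apart from the rest were replicate 1 for Ccl6 (12.68) and Cd209a (6.23), replicate 2 for Nfkbia (17.08) and replicate 4 for Olfml3 (10.81), Irf8 (10.02) and H2-T22 (8.68). In gated APP they were replicate 2 for I830077J02Rik (9.37), Itgax (12.58), Aplp2 (15.36), Il10ra (14.11) and Taf8 (9.52), replicate 3 for Klrb1c (7.59), Eef2 (10.74) and Adam17 (10.47), and replicate 4 for Psenen (13.93) and Hspa1a (7.98). In gated TAU they were replicate 1 for Trem2 (15.77), replicate 3 for Csf1 (16.63) and replicate 4 for Cops7a (10.73), Cd209a (7.04), Thy1 (7.92) and Ms4a6d (11.81).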

How the results depend on the processing

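The young count of calls stayed at 0 in every alternative run except array weights, which gave 1 (I830077J02Rik) and 1739 probe sets at an unadjusted p under 0.05; the cause was not tested. Elsewhere 124 (dim probe sets filtered out) to 651 had such a p. The fit on the 7 young samples alone gave 332 and leaving out 1 young sample 214 to 480. With the replicate block the young count was 0 (339 at an unadjusted p), the gated count 180 and the interaction count 35; it changed no other call by over 1.5 times. The pairs of samples at the ends of the first component were left out after seeing the data, with 0 calls both times and score differences of -0.076 and 0.132. The gated count lay between 96 (without gated APP replicate 2) and 169 when 1 sample was left out; without gated TAU replicate 1 it was 99. The interaction count rose to 72 with array weights, keeping 37 of the 38, and ranged from 17 to 43 when 1 sample was left out, with 23, 21 and 17 without young APP replicates 1, 2 and 3, 24 without young TAU replicate 3, and 20 and 21 without gated APP replicates 2 and 3; fewer samples were then fitted. The score difference stayed between -0.063 and 0.072 when 1 sample was left out, and the share with the same sign between 44.8% and 55.0%. List medians moved beyond the spread between replicates when 1 young sample was left out for cholesterol synthesis (to between -0.03 and 0.08), cell cycle (0.00 to 0.10), monocytes (-0.11 to 0.04) and dendritic cells (-0.02 to 0.08). Precision is limited by 3 and 4 samples, and 82 of the 151 gated calls were at background in young cells.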

Other observations

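Several calls between gated APP and gated TAU fell outside the groups described so far, and their young values are given here. Itgax, the CD11c integrin of activated microglia, was lower in gated APP by 1.15 ± 0.22, at 11.59, 12.58, 11.71 and 11.69 against 13.06, 13.36, 12.92 and 12.83 (limma, adjusted p = 0.015). In young cells it was at background in all 7 samples. Aplp2 was higher in gated APP by 1.46 ± 0.16 and differed by 0.20 ± 0.17 in young cells, where it read 12.72, 12.43 and 12.56 in APP and 12.37, 12.36, 12.24 and 12.50 in TAU. Ms4a6d, a gene of an Alzheimer risk locus, was lower in gated APP by 1.43 ± 0.26 and lower by 0.54 ± 0.28 in young APP, with overlapping young samples. Of the 25 measured genes of the NF-kB list, Tnf (-1.73), Ccl12 (-1.55) and Ccl5 were lower in gated APP than in gated TAU, beside 0.23% of all autosomal probe sets. Ccl5 was at background in all groups; Tnf and Ccl12 had young differences of 0.49 and -0.15. These 3 were singled out after their values were seen.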
